A study of Mus musculus with 2 samples.

Results

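The cells described here are migratory dendritic cells, picked out of tumour leukocytes by their transcripts. A kept cell was a member if it had at least 2 UMIs (unique molecular identifiers, each standing for 1 captured transcript) of Fscn1, at least 1 of Ccr7 and at least 5 of H2-Ab1. Its C1qa, C1qb and C1qc UMIs had to sum to less than 15, and Cd3d, Cd3e and Cd3g all had to be 0. The rule took 222 of 19580 kept cells: 107 of 10014 with anti-PD-1 and 115 of 9566 with isotype antibody. Because Fscn1, Ccr7 and H2-Ab1 chose the cells, their levels below are a description and not a finding.

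The cells came from orthotopic liver tumours grown from Hepa1-6, a mouse hepatoma cell line, in wild-type (WT) C57/BL6 mice. One group had received anti-PD-1, an antibody against the T cell checkpoint receptor PD-1, and the other an isotype antibody (IgG) as control. Tumours were digested with collagenase IV and DNase, and live CD45+ cells, the leukocytes, were enriched on beads and sorted. Each group gave 1 library of the 10x Genomics single cell 3' v2 protocol. Both groups share the strain, the genotype, the tumour line and the sort, and how many mice stand behind a library is unknown here. With 1 library per antibody no test between the antibodies is possible, and every interval below covers counting error only.

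Dendritic cells take up antigen, process it and show it to T cells. On maturation they lower uptake, raise MHC and costimulatory molecules, and gain CCR7, the receptor that guides them along CCL21 and CCL19 towards lymph nodes. Fascin, the product of Fscn1, bundles actin in their projections. In tumours this state, also called mature or regulatory, is known to carry both T cell stimulating molecules such as IL-12 and CD40 and inhibitory ones such as PD-L1, and to make the chemokines CCL17 and CCL22, which bind CCR4 on regulatory T cells. In the comparisons below it is set beside cDC1 cells, the cross-presenting conventional dendritic cells (here Xcr1 plus Clec9a at least 2 UMIs), and beside cDC2 cells (Cd209a, Clec10a and Mgl2 together at least 3 UMIs, Xcr1 and Clec9a 0).

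The promoters of 5 genes that the results turn on are shown first, as the RefSeq sequence of build GRCm38.p6 from 250 bases before to 50 bases after the gene's start, 5' to 3' on the gene's strand. Fscn1 was used to choose the cells, Ccl22 is a marker that the rule did not use, Ccl17 differed in pattern from Ccl22 between dendritic cell classes, and Cxcl10 and Gbp2 stand for the interferon-induced genes that were higher with anti-PD-1. Capitals mark matches to 3 motifs searched on both strands: the interferon-stimulated response element core (GAAA, any 2 bases, GAAA), the gamma-activated site core TTCNNNGAA and the NF-kB consensus. Fscn1 lies at chr5:142960105-142960404 (+), Ccl22 at chr8:94745434-94745733 (+), Ccl17 at chr8:94810203-94810502 (+), Cxcl10 at chr5:92348840-92349139 (-) and Gbp2 at chr3:142620413-142620712 (+).
Fscn1: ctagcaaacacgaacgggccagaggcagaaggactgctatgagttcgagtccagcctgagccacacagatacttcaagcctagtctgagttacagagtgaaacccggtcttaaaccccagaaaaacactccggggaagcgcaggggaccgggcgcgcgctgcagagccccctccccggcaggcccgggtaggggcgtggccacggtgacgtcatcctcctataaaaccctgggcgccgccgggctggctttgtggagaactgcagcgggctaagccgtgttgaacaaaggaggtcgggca
Ccl22: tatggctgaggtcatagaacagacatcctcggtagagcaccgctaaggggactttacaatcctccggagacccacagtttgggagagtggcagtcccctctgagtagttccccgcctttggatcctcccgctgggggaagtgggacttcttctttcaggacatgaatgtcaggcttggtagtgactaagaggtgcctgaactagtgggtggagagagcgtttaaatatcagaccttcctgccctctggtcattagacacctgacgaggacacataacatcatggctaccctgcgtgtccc
Ccl17: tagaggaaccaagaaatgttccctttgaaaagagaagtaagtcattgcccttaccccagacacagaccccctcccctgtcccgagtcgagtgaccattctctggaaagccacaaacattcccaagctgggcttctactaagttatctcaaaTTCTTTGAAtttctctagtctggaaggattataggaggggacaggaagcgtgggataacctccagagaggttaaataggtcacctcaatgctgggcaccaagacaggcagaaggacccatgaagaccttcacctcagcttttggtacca
Cxcl10: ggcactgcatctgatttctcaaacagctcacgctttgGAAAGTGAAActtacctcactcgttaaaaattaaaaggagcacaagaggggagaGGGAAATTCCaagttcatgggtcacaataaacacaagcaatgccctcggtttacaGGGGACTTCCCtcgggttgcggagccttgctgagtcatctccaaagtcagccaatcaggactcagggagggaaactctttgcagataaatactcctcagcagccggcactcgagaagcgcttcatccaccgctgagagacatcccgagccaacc
Gbp2: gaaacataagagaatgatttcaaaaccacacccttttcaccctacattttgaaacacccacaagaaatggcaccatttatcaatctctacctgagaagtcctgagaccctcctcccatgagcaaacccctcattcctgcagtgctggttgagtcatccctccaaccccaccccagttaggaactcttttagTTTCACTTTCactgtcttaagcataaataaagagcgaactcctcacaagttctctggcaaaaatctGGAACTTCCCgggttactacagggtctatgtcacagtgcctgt

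The Cxcl10 window held the response element core GAAAGTGAAA from 213 to 204 bases before the start, and NF-kB matches nearer to it, a pair of which overlap. The Gbp2 window held the same core on the other strand, from 59 to 50 bases before the start. Of 32851 promoters in the table, 3.44% held the response element core, 8.30% the gamma-activated core and 8.46% the NF-kB consensus. Of the 22 genes in the interferon-gamma response list used below, 16 had an entry, and 11 of their 18 promoters (61.1%) held the response element core. In the type I interferon list it was 8 of 18 promoters (44.4%), and in the NF-kB pathway list 8 of 17 promoters (47.1%) held the NF-kB consensus. A match describes the letters in the window and does not show a bound site, and no match in the Fscn1 and Ccl22 windows says only that these letters are not there.

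The members matched their label. The 3 markers that the rule did not use were found in most of them: Ccl22 in 94 of 107 and 102 of 115 cells, Cacnb3 (a calcium channel beta subunit) in 95 and 99, and Il4i1 (an amino acid oxidase that degrades aromatic amino acids) in 95 and 98. Ccr7 ran from 4 to 251 UMIs per cell with a median of 88 with anti-PD-1, and from 1 to 250 with a median of 69 with isotype. Fscn1 ran from 2 to 127 UMIs (median 29) and from 2 to 304 (median 23). At the edge of the rule, 12 and 17 cells had a single Fscn1 UMI and met every other criterion, and their Ccl22 level was 187 and 253 CPM (counts per 1000000 UMIs of the class). Just inside, the 10 and 13 cells with 2 or 3 Fscn1 UMIs had 527 and 853 CPM of Ccl22, against 1618 and 1666 CPM in the 97 and 102 cells with 4 or more. Cacnb3 stood at 240 and 32.3 CPM just outside and at 69.1 and 225 CPM just inside, so with anti-PD-1 it went the other way. Il4i1 stood at 267 and 253 CPM just outside and at 302 and 713 CPM just inside.

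The members were deeper than the average cell. Their median was 10857 UMIs and 2553 genes in the anti-PD-1 library (range 2403 to 38492 UMIs) and 9271 UMIs and 2402 genes in the isotype library (1902 to 54947), against medians of 6396.5 and 6271 UMIs over all kept cells. Together they held 1217389 and 1260471 UMIs. The libraries share 140 cell barcodes, 3 of which belong to members. A doublet score above 0.25 was given to 9 anti-PD-1 members and 1 isotype member. The 5 hepatocyte or tumour cell markers (Alb, Apoa1, Apoa2, Ttr, Afp) were all at 0 UMIs, and the 7 T cell markers summed to 5 UMIs and 1 UMI. Of the Langerhans cell markers Cd207 was at 0 UMIs, whereas Epcam and Cdh1 summed to 33 and 23 UMIs in 11 and 8 members. Neutrophil markers reached 3 UMIs in 6 and 6 members, and macrophage markers in 12 and 3. In all, 17 and 9 members carried 3 or more UMIs of neutrophil, macrophage, T, NK or B cell markers, and the list medians and genes that moved most without these cells are given both ways below.

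Migratory dendritic cells made up 1.07% of kept anti-PD-1 cells (exact Clopper-Pearson 95% interval 0.876 to 1.29) and 1.20% of kept isotype cells (0.994 to 1.44). The difference was -0.134 percentage points (Newcombe 95% interval -0.435 to 0.164), so a difference in share was not detectable at this depth. Among the 3 dendritic cell classes together they took 15.2% (12.6 to 18.1) of 704 cells and 14.2% (11.9 to 16.8) of 811 cells. The share of cDC1 cells was 0.334 points higher with anti-PD-1 (0.00221 to 0.666) and that of cDC2 cells 1.65 points lower (from 1.03 to 2.27 points lower), as counts of cells chosen by genes, each from 1 library.

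Against the other dendritic cells the members carried a distinct set of transcripts in both libraries. Over the 7234 genes with at least 20 UMIs in members, 725 (10.0%) were at least 2-fold higher than in cDC2 cells in both libraries and 440 (6.08%) at least 2-fold lower. Against cDC1 cells the counts were 807 (11.2%) and 515 (7.12%). These contrasts compare cells chosen by their genes and carry no test. Of the cDC2 cells, 105 of 439 and 208 of 577 carried 3 or more UMIs of neutrophil, macrophage, T, NK or B cell markers. So did 32 of 158 and 30 of 119 cDC1 cells. These cells were kept in the contrasts, and their part in them was not tested. The plot of dendritic cell genes shows the levels in the 3 classes.

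**Figure D1:**
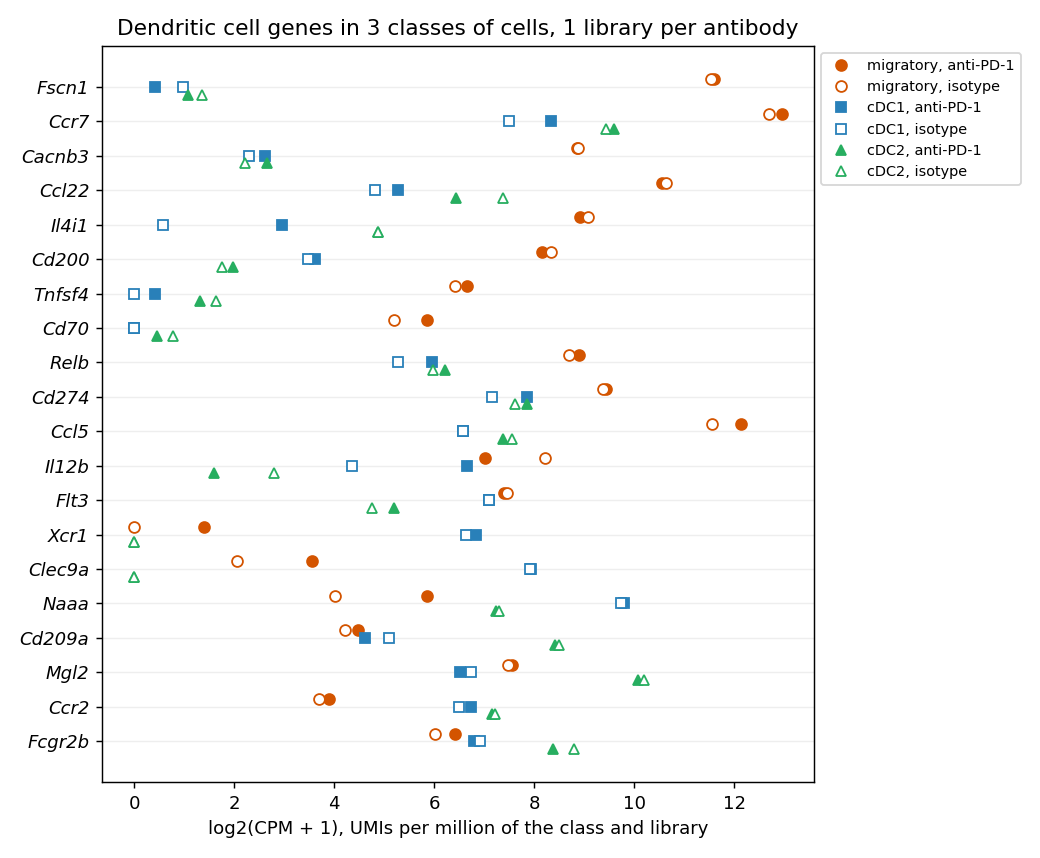
Levels of 20 genes as log2(CPM + 1) in migratory dendritic cells (circles), cDC1 cells (squares) and cDC2 cells (triangles), with filled symbols for the anti-PD-1 library and open symbols for the isotype library. Members stood apart in both libraries for Fscn1 (3094 and 2977 CPM), Cacnb3 (459 and 471 CPM) and Cd200 (283 and 321 CPM), while Xcr1, Clec9a and Cd209a were low in them; Fscn1, Ccr7 and the class-defining genes were used to choose the cells.

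Genes of movement and cell shape are taken first. Of the 13 measured genes of the migration and cytoskeleton list, 11 were at least 2-fold higher than in cDC2 cells and 10 than in cDC1 cells in both libraries, with Fscn1 and Ccr7 among them by the choice of cells. Marcksl1, an actin-binding protein of the MARCKS family, stood at 1324 and 1141 CPM in members and at 137 and 147 CPM in cDC2 cells. Tbc1d4, a GTPase-activating protein for Rab proteins, stood at 766 and 824 CPM against 55.7 and 54.8. The chemokine receptor Cxcr4 went the other way, with 43.5 and 40.5 CPM in members and 92.4 and 81.9 CPM in cDC2 cells.

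Other genes known from migratory dendritic cells followed. Of 19 measured, 18 were at least 2-fold higher than in cDC2 cells and 17 than in cDC1 cells; this list was drawn up from such cells, so its direction is no independent evidence. Nudt17 stood at 295 and 263 CPM against 0.735 and 0.843 in cDC2 cells. The endosomal tetraspanin Cd63 stood at 1029 and 951 CPM against 52.4 and 61.8. Fabp5, a fatty acid binding protein outside the list and among the leading genes against cDC1 cells, reached 3850 and 4244 CPM, against 419 and 447 in cDC2 cells and 48.5 and 44.0 in cDC1 cells. The rule for leading genes also named Clu (clusterin), at 137 and 101 CPM, Ceacam15, at 109 and 88.1 CPM, and Adcy6 (an adenylate cyclase), at 75.6 and 117 CPM, each below 1 CPM in cDC2 cells of both libraries.

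Tcf7, the transcription factor TCF-1 known from T cells, was named after its values were seen. It had 119 UMIs in 41 members of the anti-PD-1 library and 103 UMIs in 40 members of the isotype library, and 0 UMIs in cDC1 and cDC2 cells of both. Set against the floor of 3 counts per class, it was at least 177-fold and 194-fold higher than in cDC2 cells. Thinned to 2000 UMIs per cell, 15.9% and 18.4% of members kept a Tcf7 UMI, against 0.0% and 0.0% of B cells and 0.1% and 0.0% of neutrophils. Trbc2 and the Cd3 genes were at 0 UMIs in members, the latter by the rule.

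The members held much of some transcripts of the whole sorted population. They carried 77.3% and 80.4% of all Ceacam15 UMIs in kept cells, 65.9% and 68.5% of Nudt17, 58.3% and 58.4% of Cacnb3, 48.7% and 54.7% of Il4i1 and 45.0% and 45.9% of Cd200. For H2-M2, a non-classical MHC class I gene, it was 70.0% and 66.2%, from few UMIs. They were 42 in 10 anti-PD-1 members, 26 of them in 1 cell, and 49 in 19 isotype members. For Ccl22 the share was 54.5% with anti-PD-1 (52.8 to 56.2) and 42.9% with isotype (41.5 to 44.3). For Ccl17 it was 24.8% and 11.4%. The plot of transcript shares gives these with their intervals.

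**Figure D2:**
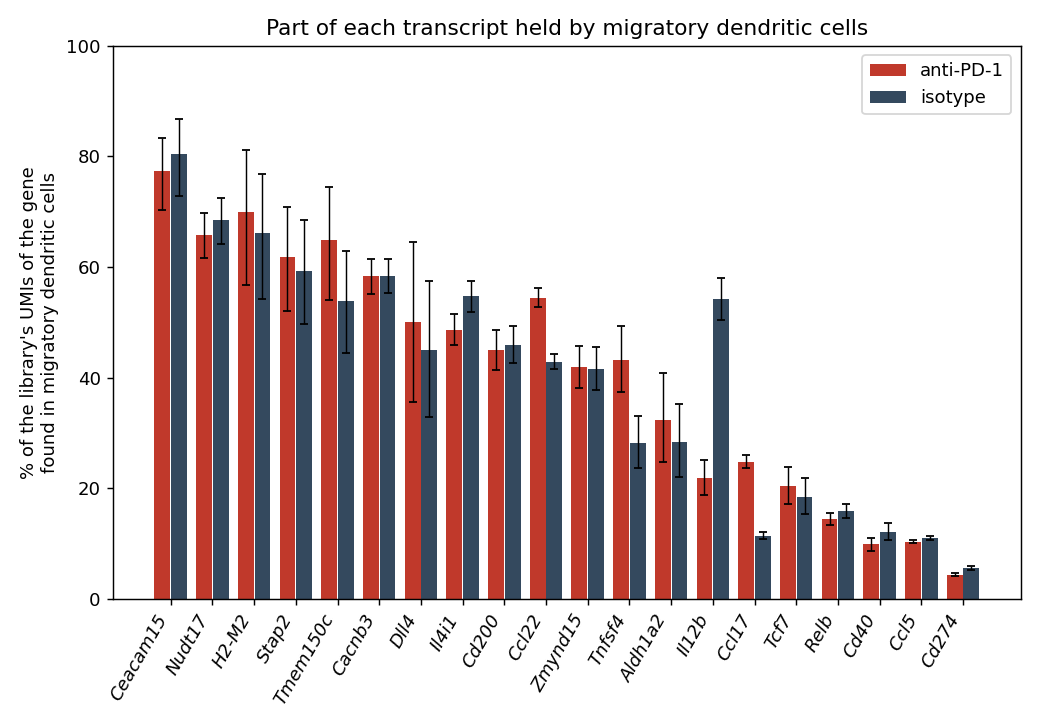
Percent of a gene's UMIs in all kept cells of a library that lay in migratory dendritic cells, for 20 genes picked for this plot after their values were seen, with exact Clopper-Pearson 95% intervals as error bars (counting error only). Members held more than 40% in both libraries for 11 of the 20 genes, from Ceacam15 (77.3% and 80.4%) to Zmynd15 (41.9% and 41.6%), while Il12b (21.8% and 54.2%) and Tnfsf4 (43.3% and 28.2%) differed most between libraries. Of the isotype members' 373 Il12b UMIs 175 lay in 1 cell, as did 26 of the anti-PD-1 members' 42 H2-M2 UMIs in another.

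Secreted signals came next. Of 13 measured chemokine and interleukin genes, 6 were at least 2-fold higher than in cDC2 cells in both libraries and 2 at least 2-fold lower. Ccl5, a chemokine that attracts T cells, was the most abundant, at 4501 and 2997 CPM against 164 and 188 in cDC2 cells and 94.9 and 94.8 in cDC1 cells. Ccl22 stood at 1514 and 1597 CPM against 85.3 and 164 in cDC2 cells. Its neighbour on the chromosome, Ccl17, stood at 996 and 877 CPM, close to the 845 CPM of cDC2 cells in the isotype library and above their 416 CPM in the anti-PD-1 library. Il15, a growth factor for T and NK cells, stood at 56.7 and 41.3 CPM against 3.31 and 3.51. Il1b was lower than in cDC2 cells, at 2620 and 1809 CPM against 4007 and 3906.

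Il12b, the p40 subunit that IL-12 and IL-23 share, stood at 128 and 296 CPM in members and at 2.02 and 5.90 CPM in cDC2 cells. In cDC1 cells it was 100.0 and 19.4 CPM. Il12a, the other subunit of IL-12, had 1 and 5 UMIs over all members. Ccl19 had 0 and 1, Il10 had 0 and 0, and Ido1, an enzyme that degrades tryptophan, had 3 and 2. These 3 genes lie at or under the floor of 3 counts in members, so no level can be given for them at this depth.

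Costimulatory and T cell survival molecules followed. Of 14 measured genes, 8 were at least 2-fold higher than in cDC2 cells, 10 than in cDC1 cells and 0 at least 2-fold lower than in either. Tnfsf4 (OX40 ligand) stood at 100.2 and 84.9 CPM against 1.47 and 2.11 in cDC2 cells. Cd70, the ligand of CD27, stood at 56.7 and 35.7 CPM against 0.368 and 0.702. Cd40 stood at 205 and 179 CPM against 42.5 and 41.7. Il15ra, which presents IL-15 to T cells, stood at 83.8 and 64.3 CPM against 4.04 and 2.67. Cd86 and Cd80 were closer to cDC2 cells, with Cd86 at 223 and 209 CPM against 166 and 130 and Cd80 at 251 and 274 CPM against 185 and 159.

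Inhibitory and regulatory genes were mixed. Of 15 measured, 8 were at least 2-fold higher than in cDC2 cells and 3 at least 2-fold lower; against cDC1 cells 10 were higher and 2 lower. Cd274, which encodes PD-L1, stood at 695 and 662 CPM in members, against 230.5 and 194 in cDC2 cells and 231 and 142 in cDC1 cells. Cd200, the ligand of an inhibitory myeloid receptor, stood at 283 and 321 CPM against 2.94 and 2.39 in cDC2 cells. Socs2, an inhibitor of cytokine signalling, stood at 398 and 325 CPM against 13.2 and 8.71 in cDC1 cells. Havcr2 (TIM-3) and Axl, a receptor for dying cells, were lower, with Havcr2 at 10.7 and 13.5 CPM against 72.4 and 60.7.

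Genes of NF-kB signalling, which drives dendritic cell maturation, stood above cDC1 cells almost as a whole. Of 16 measured, 15 were at least 2-fold higher than in cDC1 cells and 6 than in cDC2 cells. Relb, the subunit of the non-canonical pathway, stood at 476 and 412 CPM against 61.4 and 37.7 in cDC1 cells and 73.7 and 62.1 in cDC2 cells. Traf1, an adaptor of TNF receptors, stood at 1037 and 851 CPM, and Birc2, a ubiquitin ligase of the same complexes, at 288 and 285 CPM against 36.9 and 34.8 in cDC2 cells. Tnip3 and Nfkbiz were not higher than in cDC2 cells, with Tnip3 at 145 and 160 CPM against 248 and 254.

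MHC and uptake genes ran in other directions. Of 11 measured MHC class II genes, 0 were at least 2-fold higher and 2 at least 2-fold lower than in cDC2 cells. H2-Aa stood at 9476 and 8580 CPM against 10676 and 10093, whereas H2-DMb1, a chain of the peptide-exchange factor H2-M, stood at 189 and 113 CPM against 943 and 756. Of 15 class I and peptide transport genes, 5 were at least 2-fold higher than in cDC2 cells, among them H2-Q7 at 566 and 571 CPM against 149 and 135. All 8 measured uptake and pattern receptor genes were at least 2-fold lower than in cDC2 cells in both libraries, Cd209a by the choice of that class. Against cDC1 cells 0 were at least 2-fold lower in both, with median log2 ratios of -0.53 and -0.93. Clec7a was not analysed here. Fcgr2b, an inhibitory Fc receptor, stood at 83.8 and 63.5 CPM against 330 and 444, and Clec4n (Dectin-2) at 115 and 83.3 CPM against 481 and 623. Of 14 glycolysis and hypoxia genes, 7 were at least 2-fold lower than in cDC2 cells and 2 than in cDC1 cells. Ldha (lactate dehydrogenase A) stood at 658 and 555 CPM against 1544 and 1335 in cDC2 cells.

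Identity genes of both conventional classes were low. Of 8 measured cDC1 identity genes, 5 were at least 2-fold lower than in cDC1 cells, and of 10 measured cDC2 identity genes, 6 were at least 2-fold lower than in cDC2 cells; Xcr1, Clec9a, Cd209a, Clec10a and Mgl2 also defined those classes. Naaa, a lysosomal amidase, stood at 56.7 and 15.1 CPM in members against 887 and 847 in cDC1 cells. The transcription factors were kept to different degrees. Irf8, needed for cDC1 cells, stood at 888 and 752 CPM, between the 1236 and 1136 CPM of cDC1 cells and the 184 and 143 CPM of cDC2 cells. Batf3 stood at 209 and 175 CPM against 150 and 148 in cDC1 cells, and Irf4 at 56.7 and 53.2 CPM against 49.8 and 65.4 in cDC2 cells. Zbtb46 and Flt3, which mark conventional dendritic cells, stood at 87.9 and 89.7 CPM and at 168 and 175 CPM.

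Members differed among themselves in these traces. At least 2 UMIs over Xcr1, Clec9a, Cadm1, Naaa, Tlr3 and Wdfy4 were called a cDC1 trace, and at least 2 over Cd209a, Clec10a, Mgl2 and Sirpa a cDC2 trace. In the anti-PD-1 library 1 member had a cDC1 trace only, 27 a cDC2 trace only, 13 both and 66 neither (61.7%, 51.8 to 70.9). In the isotype library the counts were 5, 41, 12 and 57 (49.6%, 40.1 to 59.0). Depth moved with the trace: cells with both had medians of 15526 and 20517.5 UMIs, and cells with neither 9179.5 and 8463, and the part of depth in these counts was not tested. Ccl17 was highest in cells with a cDC2 trace only, at 1417 and 1320 CPM against 899 and 588 in cells with neither. Ccl5 was highest in cells with neither, at 6941 and 4339 CPM, against 2472 and 2884 in cells with a cDC2 trace only. It was lower still in cells with both traces, at 1094 and 1496 CPM, and in the 1 and 5 cells with a cDC1 trace only, at 1115 and 515 CPM.

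Chemokine genes were spread unevenly over the cells, as the plot of single cells shows. At least 3 UMIs of Ccl22 were present in 81 of 107 and 92 of 115 members, and of Ccl17 in 55 and 63. Nearly all Ccl17 cells were among the Ccl22 cells: 54 and 59 members had 3 UMIs of both, 27 and 33 of Ccl22 only, and 1 and 4 of Ccl17 only. Ccl5 reached 3 UMIs in 90 and 86 members. Il12b reached it in 12 and 13 members, of which 6 and 9 also had Ccl17.

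These shares were also set beside other cell types at equal depth. After thinning to 2000 UMIs per cell, which left out 1 isotype member but also 484 of 1390 and 603 of 1473 neutrophils, so that only the deeper of these remain, 68.2% and 78.1% of members kept a Ccl22 UMI (87.9% and 88.7% before thinning), against 0.0% and 0.0% of B cells and 0.2% and 0.0% of neutrophils. For Ccl17 the shares were 49.5% and 48.2% in members, 19.7% and 29.6% in cDC2 cells and 0.0% and 0.0% in B cells. For Il12b they were 12.1% and 8.8% in members and 0.0% and 0.3% in cDC2 cells. The cDC1 cells, whose thinned shares are not given here, also held Il12b, with 295 and 40 UMIs before thinning. B cells had median depths of 4483 and 3841.5 UMIs before thinning, and neutrophils 2370 and 2219.

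**Figure D3:**
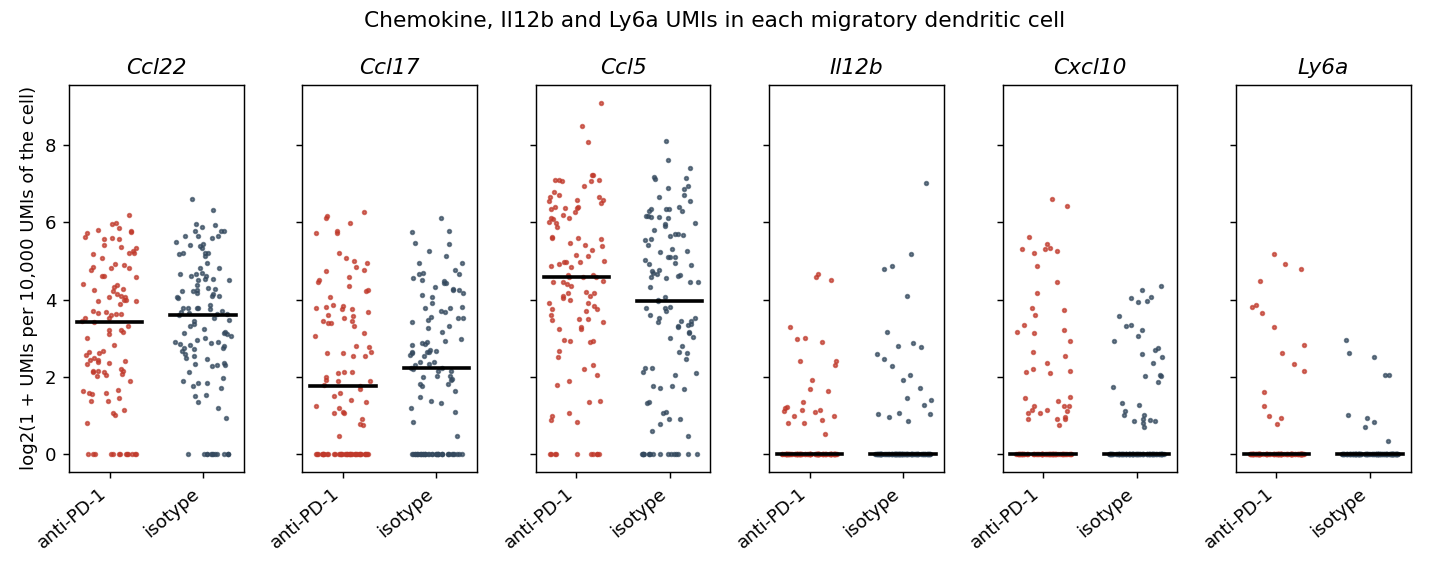
UMIs per 10000 UMIs of the cell, as log2(1 + value), for 6 genes in each migratory dendritic cell, with 107 anti-PD-1 cells in red, 115 isotype cells in dark blue and a black line at the median. Ccl22 and Ccl5 were found in most cells, whereas Il12b, Cxcl10 and Ly6a had a median of 0 and came from a minority, with 1 isotype cell at 130 UMIs per 10000 for Il12b.

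The comparison of anti-PD-1 with isotype asked how these cells differ under checkpoint blockade. Most of the program was close in the 2 libraries. Over the 7234 genes the median log2 ratio of CPM, anti-PD-1 over isotype, was 0.0071; 50.6% of genes were higher, 49.4% lower, 2.39% at least 2-fold higher (173 genes) and 2.59% at least 2-fold lower (187 genes). List medians were 0.04 for migration and cytoskeleton (7 higher, 6 lower), 0.07 for the NF-kB pathway (12 and 4), 0.07 for inhibitory and regulatory genes (10 and 5), 0.08 for the other migratory genes (13 and 6) and 0.10 for MHC class II (10 and 1). None of the genes in these 5 lists reached a 2-fold difference. The log2 ratio was -0.08 for Ccl22 (95% counting interval -0.17 to 0.01), 0.07 for Cd274 (-0.07 to 0.21) and 0.20 for Cd40 (-0.07 to 0.46). The plot of gene lists shows all 16.

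**Figure D4:**
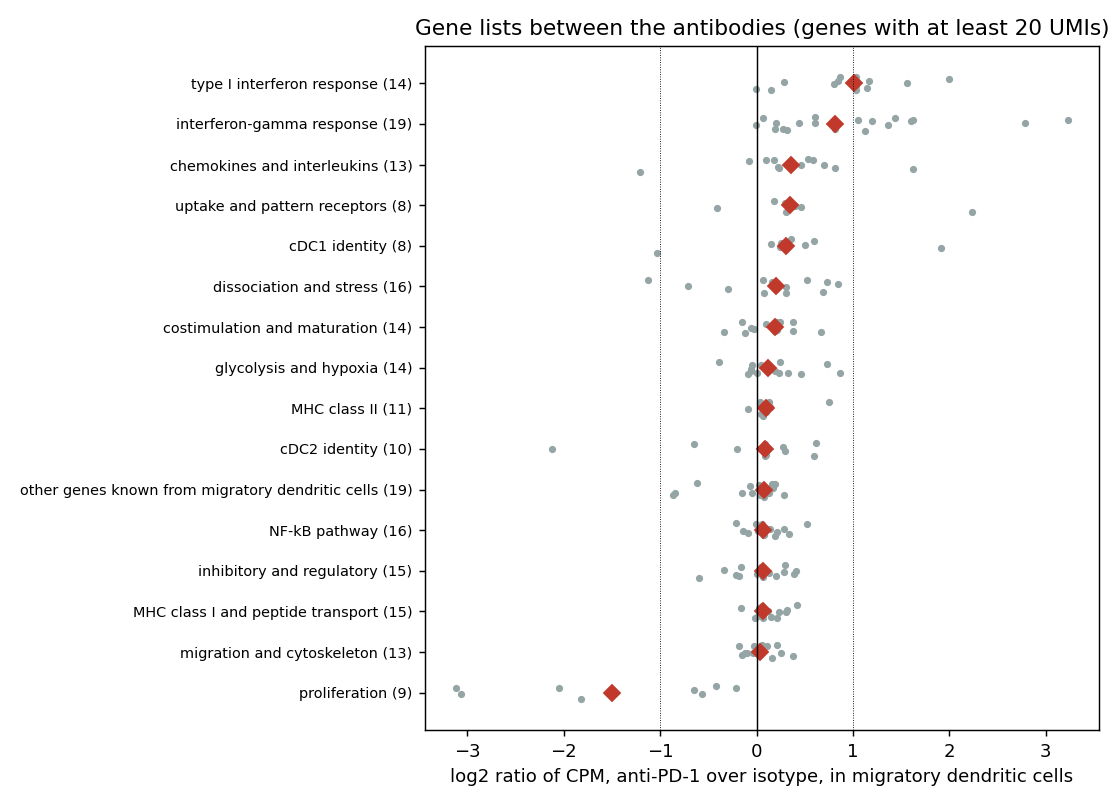
Log2 ratio of CPM, anti-PD-1 over isotype, in migratory dendritic cells for every measured gene of 16 lists (grey points; number of genes in brackets) with the list median (red diamond), and dotted lines at 2-fold. The type I interferon (1.01) and interferon-gamma (0.81) lists had the highest medians and proliferation the lowest (-1.50), the last resting largely on 1 isotype cell.

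Interferon-induced genes were higher with anti-PD-1. In the interferon-gamma response list 18 of 19 measured genes were higher and 1 lower, with a median of 0.81; 9 were at least 2-fold higher, and 16 had a counting interval above 0, which 6.82% of all genes had (5.85% had one below 0). In the type I interferon list 13 of 14 were higher, with a median of 1.01 (7 at least 2-fold, 11 with an interval above 0). An interval above 0 was not particular to these lists. It was found for 11 of 16 stress genes, 8 of 13 chemokine genes, 5 of 11 MHC class II genes and 6 of 16 NF-kB genes. Among inhibitory genes it was 1 of 15, and among the other migratory genes 1 of 19. Ido1, Gbp6 and Irgm2 of the interferon-gamma list and 5 genes of the type I list had under 20 UMIs, and Mx2 was not analysed here. Without the 17 and 9 members with other lineages' markers the medians were 0.61 and 0.85. With each cell thinned to 2000 UMIs they were 0.35 and 1.01. Leaving out, for each gene, the 1 cell of either library with the most of its UMIs gave 0.52 and 0.70. That takes a cell from only 1 of the libraries per gene. The 2 libraries are 1 each, so the antibody cannot be told apart from any other difference between them.

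The differences within these lists were uneven. Cxcl10, a ligand of CXCR3 on effector T cells, had 748 UMIs in 43 anti-PD-1 members and 252 in 33 isotype members, 614 against 200 CPM. Its log2 ratio was 1.62 (1.41 to 1.83), and 1.76 without the members with other lineages' markers, but 0.92 when cells with 1 Fscn1 UMI were let in. Ifi47 and Irgm1, GTPases induced by interferon, had log2 ratios of 1.44 (0.88 to 2.03) and 1.61 (0.76 to 2.52), at 79.7 against 29.3 CPM and 38.6 against 12.7 CPM; with cells thinned to 2000 UMIs Irgm1 was 0.09. Gbp2, a guanylate binding protein, stood at 404 against 265 CPM (0.61, 0.41 to 0.81). Irf1, a transcription factor of the pathway, differed less, by 0.19 (0.00 to 0.38). Among type I genes, Rsad2 (viperin) stood at 210.3 against 106 CPM (0.98), Ifit1 at 191 against 93.6 CPM (1.03) and Isg15 at 1076 against 886 CPM (0.28). Thinned, Rsad2 was 0.17 and Gbp2 0.22, and without the members with other lineages' markers Ifit1 was 0.53 and Isg15 0.12.

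Ly6a (Sca-1), a surface protein induced by interferons, had the largest difference of the 2 lists. It had 326 UMIs in 17 anti-PD-1 members and 36 UMIs in 10 isotype members, 268 against 28.6 CPM, a log2 ratio of 3.23 (2.73 to 3.77). At least 3 UMIs were present in 12 of 107 and 5 of 115 members. One anti-PD-1 cell held 84 of the UMIs, had a doublet score of 0.254 and carried 495 UMIs of other lineages' markers. The ratio was 2.80 without that cell alone, with every isotype member kept. It was 2.64 without the members with other lineages' markers (177 and 31 UMIs). After thinning, 10.3% and 4.4% of members kept a Ly6a UMI, against 31.2% and 25.2% of cDC1 cells, 59.1% and 52.4% of B cells and 5.52% and 4.14% of neutrophils. The isotype members' share lay close to that of neutrophils, and no expression is read from it at this depth. Ly6a lies at chr15:74994877-74998031 (-) in the GENCODE M21 annotation of mm10 and had no promoter entry.

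The type I genes were spread unevenly over the members, whereas every member had UMIs of the interferon-gamma list. Summed per cell, the type I list had a median of 8.41 UMIs per 10000 with anti-PD-1 and 5.74 with isotype, with ranges from 0 to 156 and from 0 to 148. The 5 cells with the most UMIs held 32.9% and 30.6% of the list's total. The interferon-gamma list had medians of 26.4 and 21.7 per 10000, with 24.0% and 16.3% in the top 5 cells, and 95 of 107 and 94 of 115 members had at least 10 of its UMIs. At least 10 UMIs of the type I list were present in 53 of 107 and 47 of 115 members; the members' median depth was higher in the anti-PD-1 library, and its part in these counts was not tested.

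The same lists in the other dendritic cells are given side by side. In cDC1 cells the interferon-gamma list had a median of 0.99, with 21 of 21 measured genes higher, and in cDC2 cells 0.55, with 19 of 21 higher. The type I list had a median of -0.02 in cDC1 cells, with 8 higher and 11 lower, and of 0.62 in cDC2 cells, with 17 of 18 higher. Over all genes tested, 4456 of 7007 were higher in cDC1 cells (median 0.09) and 4963 of 7138 in cDC2 cells (median 0.11), a higher share than the 50.6% in members. The classes come from the same 2 libraries, and the differences between classes were not tested. Cd274 had log2 ratios of 0.70 in cDC1 cells and 0.25 in cDC2 cells beside 0.07 in members. Ly6a was 0.84 and 0.81 in them, as the plot of interferon-induced genes shows.

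**Figure D5:**
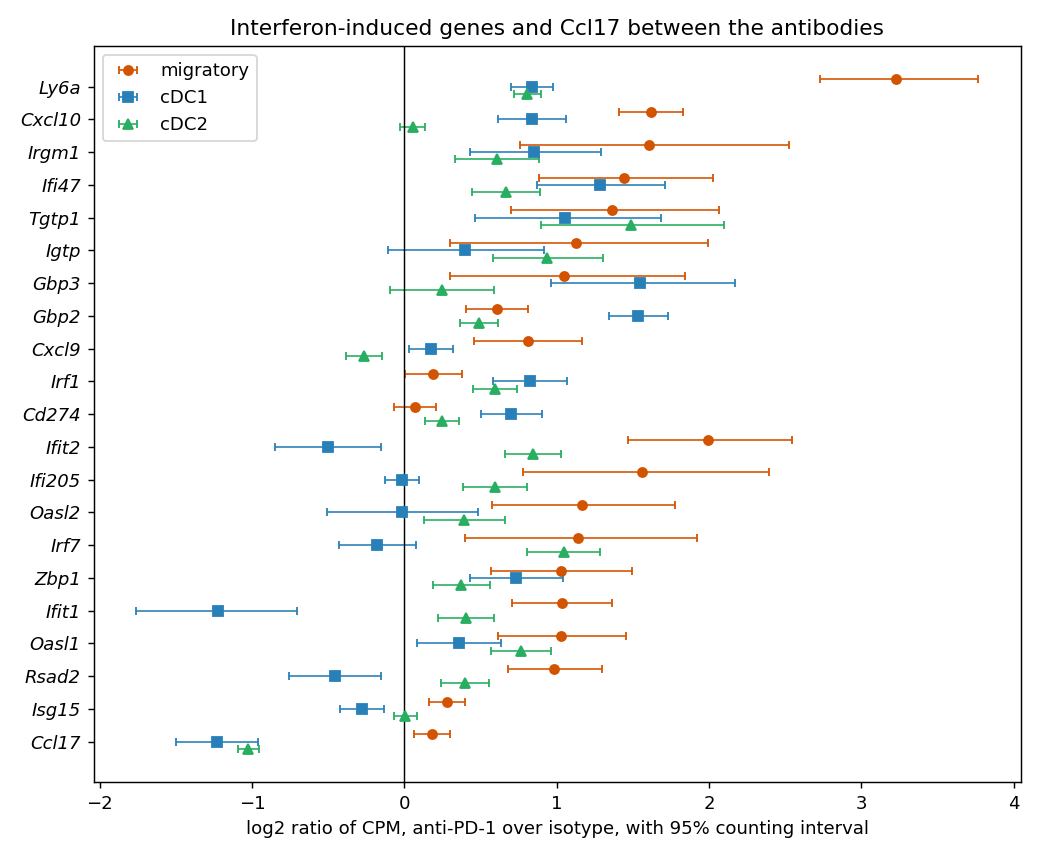
Log2 ratio of CPM, anti-PD-1 over isotype, with 95% counting intervals, for 20 interferon-induced genes and Ccl17 in migratory dendritic cells (circles), cDC1 cells (squares) and cDC2 cells (triangles), 1 library per antibody. In members every gene shown lies at or above 0, with Ly6a (3.23) and Cxcl10 (1.62) clear of the other classes, while Ccl17 lies at 0.18 in members and at -1.23 and -1.02 in cDC1 and cDC2 cells.

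Chemokine genes as a list had a median of 0.36, with 11 of 13 higher, and of 0.22 without the members with other lineages' markers. Ccl5 stood at 4501 against 2997 CPM, a log2 ratio of 0.59 (0.53 to 0.65) in members, beside 0.00 in cDC1 cells and -0.19 in cDC2 cells. Il1b stood at 2620 against 1809 CPM (0.53, 0.46 to 0.61). Cxcl9, another CXCR3 ligand, stood at 149 against 84.9 CPM in 23 and 17 cells (0.81, 0.46 to 1.17). Without the 1 cell, of either library, that had the most Cxcl9 UMIs its ratio was 0.42. Cxcl16 stood at 780 against 609 CPM (0.36, 0.22 to 0.50). Ccl4 stood at 669.5 against 569 CPM (0.24), which became -0.87 without the members with other lineages' markers, and Ccl3 went from 0.70 to -1.33.

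Ccl17 differed little between the antibodies in members and by more in the other classes. It stood at 996 against 877 CPM in members (0.18, 0.06 to 0.30), at 416 against 845 CPM in cDC2 cells (-1.02) and at 63.8 against 149 CPM in cDC1 cells (-1.23). Ccl22 was lower with anti-PD-1 in cDC2 cells too, at 85.3 against 164 CPM (-0.95), with 1514 against 1597 CPM in members. The differences between classes were not tested.

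Il12b was the one chemokine or interleukin gene at least 2-fold lower with anti-PD-1, at 128 against 296 CPM (-1.21, -1.49 to -0.93). Much of it rests on 1 cell: a single isotype member held 175 of the 373 UMIs, and without that cell alone the ratio was -0.29. The anti-PD-1 member with the most Il12b, 36 of 156 UMIs, was kept in that ratio. The number of members with at least 1 UMI was 26 and 23. Tnfrsf4 (OX40), at 80.5 against 121 CPM (-0.59, -0.97 to -0.22), and Apol7c, at 64.9 against 100.0 CPM (-0.62, -1.05 to -0.21), were lower by less. Of the 126 isotype Apol7c UMIs 1 cell held 75, and without that cell alone the Apol7c ratio was 0.68.

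The genes with the largest differences by the fixed rule came from few cells. Of the 12 highest, Ccl2 had 64 UMIs in 6 anti-PD-1 cells and 1 UMI with isotype, Arg1 (arginase 1) 246 in 9 cells against 13 in 7, Mmp12 87 in 6 cells against 5 in 3, and Hmox1 55 in 11 cells against 9 in 5. One anti-PD-1 cell with a doublet score of 0.365 held 73 Arg1, 65 Mmp12 and 81 Fn1 UMIs and 229 of the 602 Ccl6 UMIs. Anxa1 had 106 UMIs in 19 cells against 25 in 13, Fcgr1 41 in 14 against 9 in 5, and Naaa 69 in 14 against 19 in 10. Without the members with other lineages' markers, Ccl2 had 5 and 0 UMIs, Hmox1 0 and 0, and Arg1 73 and 9 (3.15). The 73 Arg1 UMIs left all lay in the cell with the doublet score of 0.365. It carried 2 UMIs of those markers and so stayed in, and the 3.15 rests on it. With doublet-scored barcodes removed, Arg1 was 2.31 and Mmp12 2.45. Several of these genes are known from macrophages, monocytes or cDC1 cells. Macrophage markers reached 3 UMIs in 12 and 3 members, monocyte markers in 29 and 31 and cDC1 markers in 13 and 12; their part in the result was not tested.

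The lowest genes were nearly all from 1 isotype member. That cell had 54947 UMIs, a doublet score of 0.117, 56 Fscn1 and 69 Ccr7 UMIs, and 2837 UMIs of other lineages' markers. It held all 636 Elane UMIs of the isotype members, 305 of 306 Mpo, 530 of 534 Prtn3, 169 of 173 Ngp and 1492 of 1979 S100a8 UMIs, genes of neutrophils and their precursors. It also held 27 of the 38 Mki67 and 53 of the 54 Hist1h1b UMIs. All 9 measured proliferation genes were lower with anti-PD-1, with a median of -1.50, and the median was -0.12 without the members with other lineages' markers. Of the stress and dissociation genes 13 of 16 were higher with anti-PD-1, with a median of 0.20 that became 0.04 without those members.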

How the data were processed

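Live CD45+ cells from 2 groups of tumour-bearing mice were profiled, 1 library per antibody. The deposited files hold UMI counts per gene and cell for 32285 genes and 10149 (anti-PD-1) and 9683 (isotype) barcodes. Per the file headers the matrices were written by Cell Ranger 5.0.1, whereas the submitters' processing notes name version 2.1.1, with build mm10. From there, barcodes with at least 200 genes and at most 10% mitochondrial UMIs were kept, with doublets scored by scrublet (expected rate 0.06) in scanpy 1.11.5 and not removed. UMIs of the members of a library were summed and divided by the class total (CPM, computed here). Genes with at least 20 UMIs over both libraries' members were compared. Ratios carry exact conditional binomial 95% intervals, shares Clopper-Pearson and differences of shares Newcombe intervals. These treat UMIs or cells as independent, and with 1 library per group no p-value was computed. The floor for a count of 0 was 3 counts per class. The scripts were tested on simulated data. Python 3.11.15, numpy 2.4.6, pandas 2.3.3 and scipy 1.17.1 were used. Antibody dose, timing and the number of mice pooled are unknown here.

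The members and gene lists were chosen with earlier results of these data known. Genes named are members of those lists and of the marker lists. Between antibodies they are also the 12 highest and 12 lowest by the interval bound nearest 0, among genes with at least 50 UMIs in members and 20 CPM in the higher library. Mitochondrial, ribosomal, haemoglobin, Y-linked, Xist, immunoglobulin and T cell receptor segment genes and unnamed models were left out. Against cDC2 and cDC1 cells they are the 15 highest and 15 lowest by the smaller of the 2 libraries' log2 ratios. Dll4, H2-M2, Tcf7 and a few other single genes were named after their values were seen. Mx2 and Clec7a were not analysed here. Of the alternatives, 14 were planned and 1, leaving out cells with other lineages' markers, was added after seeing the data.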

Additional observations from a re-analysis of the deposited data

Results flagged for a closer look

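Some genes lay on one side in migratory dendritic cells and on the other in cDC1 or cDC2 cells, each with a 95% counting interval that left out 0. Each class came from 1 library per antibody, so the difference between classes was not tested. Values are log2 ratios of CPM, anti-PD-1 over isotype.

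Chemokine and interferon genes were among them. Ccl17 was 0.18 in members, -1.23 in cDC1 cells and -1.02 in cDC2 cells. Ccl5 was 0.59 in members and -0.19 in cDC2 cells, and Cxcl9 0.81 and -0.26. Against cDC1 cells, Ifit1 was 1.03 in members and -1.23, Rsad2 0.98 and -0.46, Ifit2 1.99 and -0.50, and Isg15 0.28 and -0.28. One anti-PD-1 member held 71 of the 146 Ifit2 UMIs, and Ifit2 was 1.35 without the cells with other lineages' markers. Ccl3 was 0.70 in members and -1.01 in cDC1 cells, and Ccl4 0.24 (0.235) and -0.82; both were below 0 in members without the cells with other lineages' markers. Il12b was -1.21 in members and 2.37 in cDC1 cells, with 175 of the 373 isotype UMIs in 1 member.

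Genes carried by few members made up the rest. Ccl2 was 6.05 in members, -0.99 in cDC1 cells and -0.16 in cDC2 cells. In members it was 2.32 with doublet-scored barcodes removed, 1.31 thinned, and 0.87 against a floor of 3 counts without the cells with other lineages' markers. Arg1 was 4.29, -0.73 and -0.65 in the same order, Mmp12 4.17, -0.66 and -0.63, and Hmox1 2.66, -0.86 and -0.46. Ccl6 was 2.05, -0.56 and -0.50, and Fn1 1.60, -0.67 and -0.42. With doublet-scored barcodes removed, Ccl6 was -0.12 and Fn1 -0.096 in members, so neither kept an opposite sign. Anxa1 was 2.13 in members and -0.30 in cDC1 cells, and the heat shock gene Hspa1a 0.73 and -0.42. Without the cells with other lineages' markers Hspa1a was -0.11 in members, and the opposite sign is lost. All Hmox1 UMIs of members lay in those cells. On the lower side in members, Hist1h1b was -3.70 against 0.80 in cDC1 cells, Mki67 -1.50 against 0.36, Csf1 -2.65 against 1.66, and Bcl2l14 -0.85 against 0.38. The Csf1 ratio in cDC1 cells came from 18 and 4 UMIs, with a counting interval of 0.055 to 3.68. Under some alternatives given below, Hist1h1b reached 2.05, Mki67 0.37 and Csf1 0.74 in members, and their opposite sign is lost there.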

How the results depend on the processing

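No paired analysis was possible because each antibody has 1 library. The share difference ran from -0.220 to -0.0976 percentage points over 9 alternatives. The interferon-gamma list's median ran from 0.354 to 0.894 and the type I list's from 0.699 to 1.06 over 15. Genes at least 2-fold higher with anti-PD-1 numbered 92 with cells thinned to 2000 UMIs, 357 at a minimum of 10 UMIs and 58 at 50; those lower numbered 75, 404 and 50. Thinned, 430 genes were at least 2-fold higher and 159 lower than in cDC2 cells, and 259 were lower at a minimum of 50 UMIs. The number of genes compared changes with these settings and is not given here. These counts are therefore not shares of the 7234 genes. Of the list medians, stress became 0.0361 without cells with other lineages' markers. Proliferation became -0.0149 without cells above 30000 UMIs, -0.314 as the mean of cells, -0.184 without the top cell and -0.121 without cells with other lineages' markers. Of 16 list medians 13 kept their sign under every alternative, and of 74 genes 55 did. With doublet-scored barcodes removed, Ccl6 was -0.12 and Fn1 -0.096. Without cells above 30000 UMIs and without the top cell, Prtn3 was 1.69 and 1.75, and Hist1h1b 1.99 and 2.05. Csf1 was 0.74 with Fscn1 at least 4 UMIs and 0.47 without the top cell. Mki67 was 0.37 without cells above 30000 UMIs, 0.32 as the mean of cells, 0.29 without the top cell and 0.27 without cells with other lineages' markers. The causes were not tested, beyond the cells each alternative leaves out. Depth limits genes under 20 UMIs over all members, for which no ratio is given.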
